A study of Homo sapiens with 12 samples.

Results

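The BCL2 family comprises proteins that decide whether the outer membrane of the mitochondrion is opened during intrinsic apoptosis. The 10 genes described here were chosen by name: the antiapoptotic members MCL1, BCL2, BCL2L1 and BCL2L2, the effectors BAX and BAK1, and the BH3-only members BID, BAD, BCL2L11 and PMAIP1. They are 10 of the 57905 genes in the authors' deposited table, each matched to a single row, and all 10 passed the filter on low counts that kept 15142 genes. The transcripts were measured by RNA-seq in MDA-MB-231 cells, an established line from a triple-negative breast cancer with mesenchymal features. Cells received 1 µM SFN with 0.5 µM ZA (SFN+ZA), 1 µM SFN alone, 0.5 µM ZA alone, or a vehicle of 0.01% DMSO and 0.05% water, each for 48 h. There were 3 libraries in each of the 4 groups, and the design asks how SFN and ZA, alone or together, change transcript levels in this line. SFN is a common abbreviation of sulforaphane, and ZA of zoledronic acid, but the labels spell out neither name. The treatment SFN is not the gene of that symbol. One cell line was used, so every group shares its genotype.

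In this family, BAX and BAK1 form the pores that release cytochrome c, and the antiapoptotic proteins hold them in check by binding them. BH3-only proteins are stress sensors: their BH3 helix fits into a groove on the antiapoptotic proteins, and some of them also activate BAX and BAK1 directly. Much of this control acts on the proteins, through binding, phosphorylation and turnover, and transcript levels show none of it. RNA from a whole dish was sequenced, so fewer cells of a kind and less RNA per cell cannot be told apart.

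The BH3 motif is the element that all 10 members share, and the bases that code for its core are shown to let the genes be compared by sequence. Each stretch holds 24 bases, or 8 codons, of the coding strand, 5′ to 3′, from the GENCODE release 29 transcript of the gene (GRCh38). Capitals mark codons 5 and 6, the conserved pair at the centre of the core.
MCL1: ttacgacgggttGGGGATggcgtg
BCL2: ctccgccaggccGGCGACgacttc
BCL2L1: ctgagggaggcaGGCGACgagttt
BCL2L2: atgcgggcagctGGAGATgagttc
BAX: ctcaagcgcatcGGGGACgaactg
BAK1: ctcgccatcatcGGGGACgacatc
BID: ctcgcccaggtcGGGGACagcatg
BAD: ctccggaggatgAGTGACgagttt
BCL2L11: ttgcggcgtattGGAGACgagttt
PMAIP1: ctcaggagatttGGAGACaaactg
In 9 of the 10 stretches the capitals read GGNGAN, and in BAD they read AGTGAC. The wobble bases of the capitals differ between some genes and are the same in others, as in BAX, BAK1 and BID. G and C made up 75.0% of the BCL2 stretch, the highest, and 45.8% of the PMAIP1 stretch, the lowest. Over whole transcripts the order was another one: BAD had the highest GC content at 65.0%, and BCL2 the lowest at 45.9%.

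The library totals lay between 15265377 and 25351286 counts. SFN 2 and vehicle 2 lay outside the range of the remaining 10 libraries: their counts declined with transcript GC content by 1.31 and 0.576 log2 units per 10 percentage points, while the slopes of the others lay between -0.18 and 0.18. Mitochondrially encoded transcripts took 1.60% of the counts of SFN 2 and 0.775% of vehicle 2, against 1.89 to 5.30% elsewhere. Markers of the line were present, with medians of 1086 CPM (counts scaled to library size) for VIM, 809 CPM for CD44, 76.0 CPM for ZEB1 and 34.9 CPM for SNAI2. Of the luminal markers, PGR was at 0 and ESR1 at no more than 0.124 CPM in every library, while GATA3 and EPCAM had medians of 17.7 and 20.4 CPM. The immune marker CD3E was at 0, PTPRC reached 0.397 CPM, and the endothelial marker CDH5 reached 0.0666 CPM. The fibroblast marker COL1A1 ranged from 1.76 to 17.3 CPM. Because of the 2 libraries, most fold changes below are given from all 12 libraries and again from 10 libraries with an offset for GC content in each library.

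BCL2L1, which encodes the antiapoptotic protein BCL-xL, and MCL1, an antiapoptotic protein known for its fast turnover, were the most abundant transcripts of the family. Levels between genes are compared as FPKM, which divides by gene length. In SFN+ZA libraries BCL2L1 had 165, 136 and 140.2 FPKM and MCL1 had 89.1, 84.9 and 84.2 FPKM. SFN libraries held 119.7, 32.6 and 108 FPKM of BCL2L1, and 85.0, 115 and 85.8 FPKM of MCL1. ZA libraries held 103, 154 and 171 FPKM of BCL2L1, and 82.3, 82.1 and 83.1 FPKM of MCL1. BCL2L1 thus lay above MCL1 in every library of those groups except SFN 2. Vehicle libraries had 169.5, 51.5 and 132 FPKM of BCL2L1, and 80.3, 94.0 and 76.9 FPKM of MCL1. BCL2L1 exceeded MCL1 in 10 of the 12 libraries, the exceptions being SFN 2 and vehicle 2.

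PMAIP1, which encodes NOXA, a BH3-only protein that binds chiefly MCL1, held rank 3 in every group, at 48.2 ± 1.68 FPKM in SFN+ZA, 78.5 ± 27.6 in SFN, 53.3 ± 8.04 in ZA and 67.0 ± 20.8 in vehicle (SD, n = 3 each). The pore formers BAK1 and BAX followed, at 28.0 and 24.4 FPKM in SFN+ZA, 19.6 and 14.0 in SFN, 29.4 and 24.0 in ZA, and 23.7 and 18.5 in vehicle. BAD, a BH3-only protein inactivated by survival kinases, was sixth in all 4 groups, between 8.58 FPKM in SFN and 18.8 FPKM in SFN+ZA. BCL2L11, which encodes BIM, BID, which links death receptors to mitochondria after cleavage by caspase-8, and BCL2L2, which encodes BCL-w, lay close together between 5.09 and 7.79 FPKM. BCL2, the founding member of the family, was last, at 1.28 ± 0.10 FPKM in SFN+ZA, 1.55 ± 0.12 in SFN, 1.39 ± 0.27 in ZA and 1.36 ± 0.26 in vehicle (SD, n = 3 each). In SFN+ZA and in ZA the libraries of BCL2L1, MCL1, PMAIP1 and BAK1 did not overlap from one rank to the next, and neither did those of ranks 6 and 7. In SFN and in vehicle the first 3 ranks overlapped, so their order did not exceed the spread of the libraries. The gap between ranks 3 and 4 and the gap above BCL2 were free of overlap in all 4 groups.

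**Figure D1:**
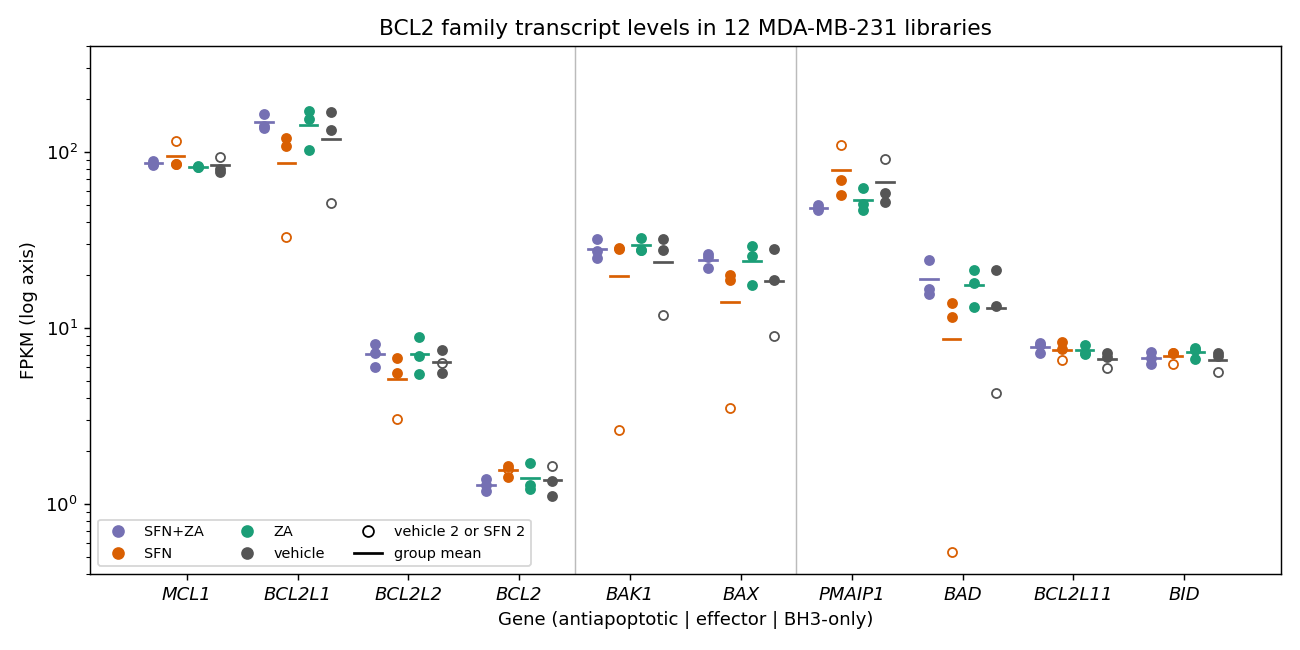
FPKM of the 10 genes on a log axis, by role, with SFN+ZA, SFN, ZA and vehicle from left to right, a point for each library and a bar for the mean of 3 libraries. Open circles are SFN 2 and vehicle 2, which lie far below the other libraries for BCL2L1, BAK1, BAX and BAD and above them for PMAIP1.

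BCL2L1 and MCL1 together made up nearly all antiapoptotic FPKM outside SFN 2 and vehicle 2: in those 10 libraries BCL2L1 took 53.4 to 65.5% and MCL1 31.1 to 42.8%. The summed FPKM of BAX and BAK1, divided by that of the 4 antiapoptotic genes, was 0.217 ± 0.00325 in SFN+ZA, 0.166 ± 0.109 in SFN, 0.229 ± 0.00887 in ZA and 0.193 ± 0.0511 in vehicle (SD, n = 3 each). It lay between 0.214 and 0.235 in 10 libraries, and was 0.0401 in SFN 2 and 0.135 in vehicle 2. The BH3-only genes, set against the antiapoptotic ones in the same way, gave 0.338 ± 0.0123 in SFN+ZA, 0.563 ± 0.219 in SFN, 0.375 ± 0.0828 in ZA and 0.476 ± 0.191 in vehicle. Over the 10 libraries that ratio ran from 0.314 to 0.490, and it was 0.809 in SFN 2 and 0.694 in vehicle 2. In SFN 2 and vehicle 2 both BH3-only ratios thus lay above, and both effector ratios below, those of the remaining libraries. No test was made of a ratio over chosen genes.

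**Figure D2:**
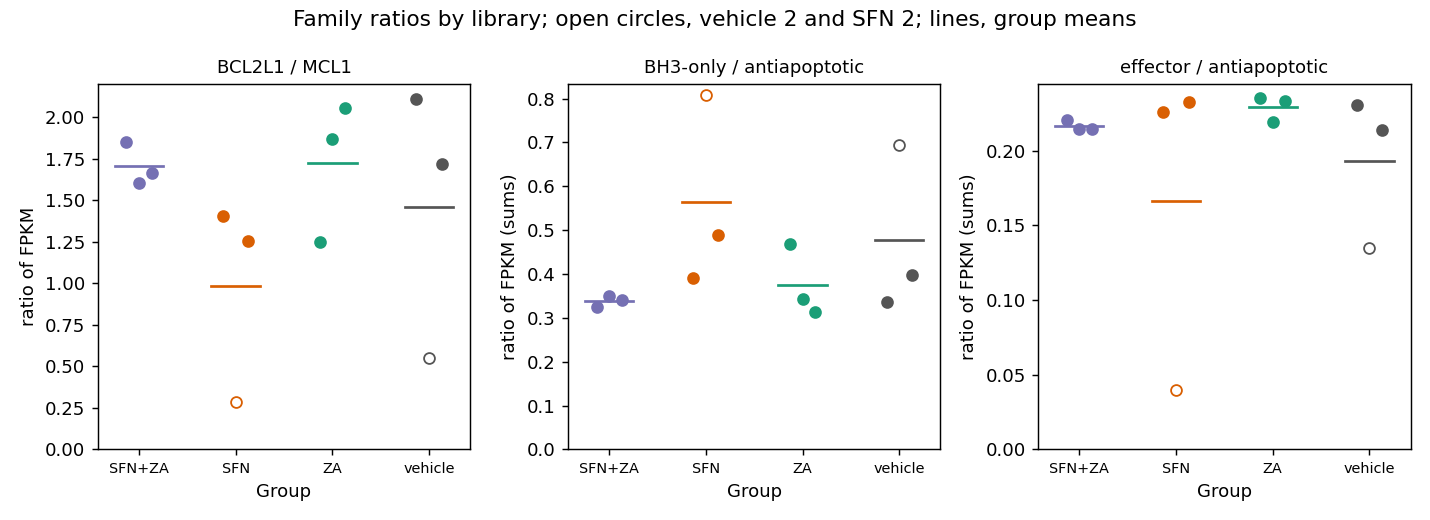
Ratios of FPKM in each library for BCL2L1 over MCL1, for the summed BH3-only over antiapoptotic genes, and for the summed effectors over antiapoptotic genes, with groups from SFN+ZA to vehicle and bars for means of 3 libraries. The open circles, SFN 2 and vehicle 2, lie below the other libraries for BCL2L1 over MCL1 and for the effectors, and above them for the BH3-only genes; the effector ratio of the other 10 libraries lies between 0.214 and 0.235.

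The members with the higher GC content were the lower ones in those 2 libraries, without overlap in SFN 2 and with overlap in vehicle 2. BAD, BAX, BCL2L2, BAK1 and BCL2L1, the 5 members with a GC content of 55.7% or more, were below the median of the other 10 libraries by 1.21 to 4.95 log2 units in SFN 2 (BCL2L2 least, BAD most) and by 0.12 to 1.92 in vehicle 2. BID, BCL2L11, MCL1, PMAIP1 and BCL2, with 45.9 to 54.1%, lay between -0.23 and 1.09 in SFN 2 and between -0.36 and 0.83 in vehicle 2. In vehicle 2 BCL2L2, at -0.12, lay above BID and BCL2L11, at -0.36 and -0.33. BAD had 16 counts in SFN 2. Its highest and lowest libraries differed 46.5-fold over all 12 and 2.08-fold over the other 10. MCL1 was the steadiest member over those 10, with a 1.14-fold range, followed by BCL2L11 and BID at 1.25-fold and BAK1 at 1.30-fold. Whether GC content is what set these 2 libraries apart was not tested.

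**Figure D3:**
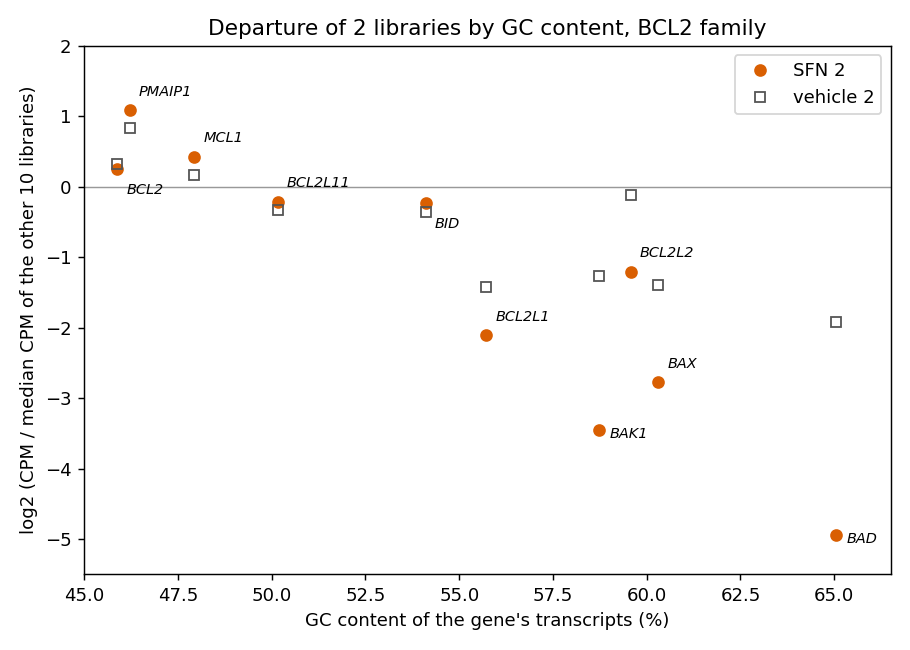
The log2 ratio of CPM in SFN 2 (filled circles) and vehicle 2 (open squares) to the median of the other 10 libraries, against the GC content of each gene's transcripts in percent. BAD, at 65.0% GC, lies lowest at -4.95 in SFN 2, and PMAIP1, at 46.2%, highest at 1.09.

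SFN+ZA was set against vehicle to ask what the combination does. PMAIP1 (ENSG00000141682, chromosome 18, 57567180 to 57571538, plus strand; positions are GRCh37/hg19 as in the authors' deposited table) had 106, 114 and 109 CPM in SFN+ZA, against 117, 207 and 134 CPM in vehicle. All 3 SFN+ZA libraries lay below all 3 vehicle libraries, and vehicle 2 was far above the rest of its group. The log2 fold change was -0.47 ± 0.26 (SE) and did not pass (edgeR quasi-likelihood test, adjusted p = 0.86). It was -0.19 without vehicle 2, and with 10 libraries and the GC offset it was -0.18 ± 0.09 (adjusted p = 0.32). PMAIP1 was the 1 member of 10 whose groups did not overlap, where 21.2% of all genes tested had no overlap and 9.63% were lower in SFN+ZA without overlap.

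MCL1 (ENSG00000143384, chromosome 1, 150547032 to 150552066, minus strand) had 380.3, 366 and 362 CPM in SFN+ZA, against 341, 404 and 333 CPM in vehicle. The groups overlapped only through vehicle 2, and the log2 fold change was 0.04 ± 0.14 (adjusted p = 0.92). It came to 0.13 ± 0.06 in the 10 libraries with the offset (adjusted p = 0.24). BAK1 (ENSG00000030110, chromosome 6, 33540329 to 33548019, minus strand) had 73.1, 62.8 and 57.6 CPM in SFN+ZA, against 72.4, 27.2 and 64.0 CPM in vehicle. Those groups overlapped, and the log2 fold change was 0.24 ± 0.65 with 12 libraries and -0.19 ± 0.09 with 10 libraries and the offset (adjusted p = 0.25). Its sign thus turned when vehicle 2 and SFN 2 were left out. Reads of BAK1 could be shared with its pseudogenes BAK1P1 and BAK1P2, which had 353 and 31 counts over all libraries against 12148 for BAK1.

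BCL2L11 (ENSG00000153094, chromosome 2, 111876955 to 111926024, plus strand) had 48.6, 53.9 and 56.0 CPM in SFN+ZA, against 45.8, 40.1 and 49.1 CPM in vehicle, and the groups overlapped by their nearest libraries. Its log2 fold change was 0.23 ± 0.15 (adjusted p = 0.86), and 0.14 ± 0.09 in the 10 libraries with the offset. The other 6 members had values between -0.08 for BCL2 and 0.54 for BAD with 12 libraries, and between -0.12 for BID and 0.08 for BCL2 with 10 libraries and the offset. The median of the 10 members was 0.19 and that of all genes tested 0.01 with 12 libraries. With 10 libraries and the offset these medians were -0.02 and -0.03. Of the 10 members 3 kept their sign in 4 fits, those with and without the 2 libraries and with and without the offset. edgeR called 0 of the 10 members and 0 of 15142 genes (0%) at an adjusted p under 0.05. At an unadjusted p under 0.05 there were 744 genes (4.91%) and none of the members, and DESeq2 called 21 genes, none of them members. In the 10 libraries with the offset, 464 of 15353 genes were called (3.02%), again with 0 of the members.

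**Figure D4:**
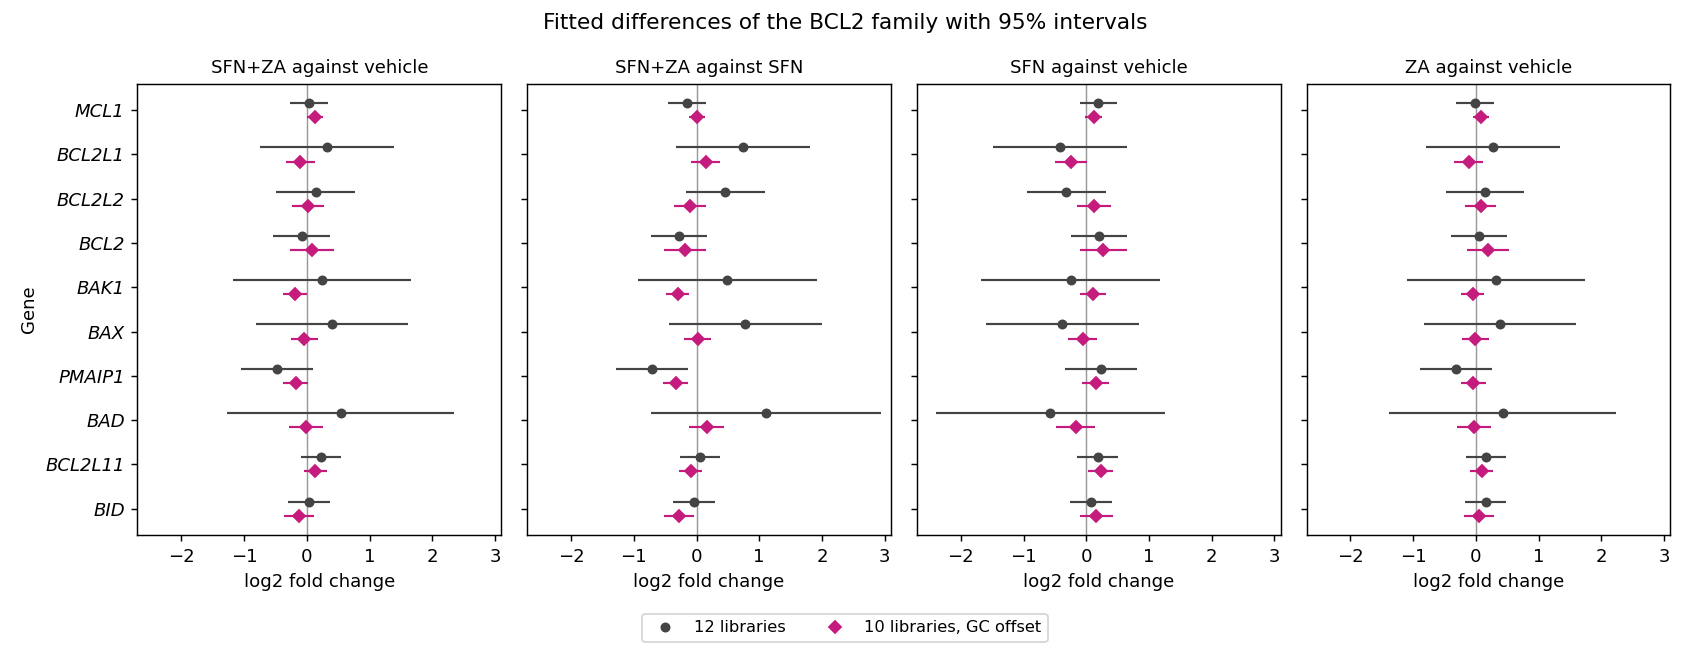
Fitted log2 fold changes of the 10 genes with 95% intervals in SFN+ZA against vehicle, SFN+ZA against SFN, SFN against vehicle and ZA against vehicle, from all 12 libraries (circles) and from 10 libraries with the GC offset (diamonds). The intervals narrow in the second fit, and PMAIP1 in SFN+ZA against SFN lies below 0 in both, at -0.71 and -0.33.

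The addition of ZA to SFN was read from SFN+ZA against SFN. PMAIP1 had 106, 114 and 109 CPM in SFN+ZA, against 132, 246 and 160.1 CPM in SFN, so every combination library lay below every SFN library. The log2 fold change was -0.71 ± 0.26, with a 95% interval of -1.28 to -0.14 (adjusted p = 0.22). It ranged from -0.89 without SFN 1 to -0.42 without SFN 2. The 10 libraries with the offset put it at -0.33 ± 0.09 (adjusted p = 0.090), the lowest adjusted p of any member in any of the 25 settings tried. The authors' deposited table gave -0.71 with an adjusted p of 0.46 for the same pair. PMAIP1 thus lay lower in SFN+ZA in each of these fits and passed the threshold in none.

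BCL2L1 (ENSG00000171552, chromosome 20, 30252255 to 30311792, minus strand) had 553, 460.4 and 475 CPM in SFN+ZA, against 410.4, 109 and 369.7 CPM in SFN, with no overlap. Its log2 fold change was 0.74 ± 0.49 (adjusted p = 0.33), and 0.15 ± 0.11 in the 10 libraries with the offset. BAX (ENSG00000087088, chromosome 19, 49458072 to 49465055, plus strand) had 68.4, 57.9 and 66.3 CPM in SFN+ZA, against 53.0, 9.07 and 50.1 CPM in SFN, again without overlap. The log2 fold change of BAX was 0.78 ± 0.55 (adjusted p = 0.36), and 0.02 ± 0.10 in the 10 libraries with the offset. The GC slopes of the libraries move with both values, and their part in them was not tested. BAD (ENSG00000002330, chromosome 11, 64037302 to 64052176, minus strand) had 42.2, 27.3 and 28.8 CPM in SFN+ZA, against 20.3, 0.907 and 24.3 CPM in SFN. The difference of BAD was 1.11 ± 0.83 with 12 libraries and 0.16 ± 0.13 with 10 libraries and the offset, so that most of its size went with the left-out libraries and the offset. BAD overlaps GPR137 on the opposite strand, which had 7634 counts against 5263 for BAD, so its count is uncertain without a stated strand setting.

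BAK1 had 73.1, 62.8 and 57.6 CPM in SFN+ZA, against 66.3, 5.95 and 65.7 CPM in SFN. These overlapped, and the log2 fold change was 0.49 ± 0.65 with all libraries, -0.04 ± 0.12 in the 10 libraries without an offset and -0.30 ± 0.09 with it (adjusted p = 0.093). The sign of BAK1 thus turned when SFN 2 and vehicle 2 were left out; with the offset on all 12 libraries it was 0.05 ± 0.33. BID (ENSG00000015475, chromosome 22, 18216906 to 18257536, minus strand) had 32.5, 28.0 and 30.2 CPM in SFN+ZA, against 32.8, 27.8 and 32.9 CPM in SFN, a log2 fold change of -0.04 ± 0.15. BID in the 10 libraries was at -0.13 ± 0.11 without the offset and at -0.28 ± 0.11 with it (adjusted p = 0.17). With the offset on all 12 libraries BID was at -0.44 ± 0.15 (adjusted p = 0.24), so its size went with the offset. BCL2 (ENSG00000171791, chromosome 18, 60790579 to 60987361, minus strand) had 9.16, 10.8 and 10.01 CPM in SFN+ZA, against 11.2, 12.1 and 13.1 CPM in SFN. These did not overlap, and the log2 fold change was -0.28 ± 0.20 (adjusted p = 0.36), and -0.19 ± 0.16 in the 10 libraries with the offset. The other 3 members, MCL1, BCL2L2 and BCL2L11, had values of -0.15, 0.46 and 0.05 with 12 libraries and of 0.01, -0.10 and -0.09 with 10 libraries and the offset. With the offset on all 12 libraries BCL2L2 was at -0.44 ± 0.26, so its sign turned with the offset.

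In SFN+ZA against SFN, 5 of the 10 members had no overlap between the groups: BCL2 and PMAIP1 lower, and BCL2L1, BAX and BAD higher. The share among all genes tested was 47.1%, with 23.7% lower and 23.4% higher, so the count of 5 is near the background. The members' median was 0.26 and that of all genes 0.05 with 12 libraries. With 10 libraries and the offset they were -0.10 and -0.02, so the sign of the members' median turned. edgeR called 0 members and 0 of 15142 genes (0%), with 3312 genes (21.9%) and 1 member, PMAIP1, at p under 0.05 before adjustment, and DESeq2 called 6 genes and 0 members. The 10 libraries with the offset gave 23 called genes (0.15%), none of them a member.

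SFN against vehicle gave no member past the threshold. BCL2L11 had 52.1, 43.6 and 57.2 CPM in SFN, against 45.8, 40.1 and 49.1 CPM in vehicle, with overlap. The log2 fold change of BCL2L11 was 0.18 ± 0.15 (adjusted p = 0.73) and 0.23 ± 0.10 with 10 libraries and the offset (adjusted p = 0.37). PMAIP1 differed by 0.24 ± 0.26, and by 0.15 ± 0.10 in the 10 libraries with the offset (adjusted p = 0.57). It was -0.08 without SFN 2 alone, 0.52 without vehicle 2 alone and 0.21 without both. BAK1 was at -0.25 ± 0.65 with all libraries, at 0.27 without SFN 2 and at 0.11 ± 0.10 in the 10 libraries with the offset. BCL2L1 was at -0.42 ± 0.48, and at -0.25 ± 0.12 with 10 libraries and the offset (adjusted p = 0.44). MCL1 had 371, 486 and 375 CPM in SFN, against 341, 404 and 333 CPM in vehicle, a log2 fold change of 0.19 ± 0.14, and of 0.12 ± 0.06 in the 10 libraries with the offset. The remaining members lay between -0.57 for BAD and 0.20 for BCL2, and between -0.17 for BAD and 0.27 for BCL2 in the 10 libraries with the offset. Among them BID was at 0.08 ± 0.15 with 12 libraries, and at 0.35 ± 0.15 with the offset on all 12 (adjusted p = 0.82). The median was -0.08 over the members and -0.01 over all genes with 12 libraries, and 0.12 and 0.01 with 10 libraries and the offset. None of the 10 members had groups without overlap, where 7.88% of all genes did. Without SFN 2 and vehicle 2, 5 members had none (MCL1, BCL2, BID and BCL2L11 higher, BCL2L1 lower), against 47.4% of all genes (24.5% higher, 22.9% lower). edgeR called 0 members and 0 genes (0%), with 753 genes (4.97%) and 0 members at p under 0.05 before adjustment, and DESeq2 called 0 genes. In the 10 libraries with the offset 4 genes were called (0.0261%), none of them a member.

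SFN and vehicle libraries of the same replicate number deviated together, with correlations of 0.342 to 0.720. Vehicle 1 with SFN 3 (0.597) and vehicle 3 with SFN 1 (0.433) did so too. The remaining pairs of unlike number, all with vehicle 2 or SFN 2, lay between -0.726 and -0.418. The correlations thus do not show that the numbers pair the libraries. With that limit, the groups were also read within the 3 same-number pairs. MCL1, BID, BCL2L11 and PMAIP1 were higher in SFN than in the vehicle library of the same number in all 3 pairs, and BCL2L1 was lower in all 3. PMAIP1 differed by 0.18, 0.25 and 0.26 log2 units in pairs 1, 2 and 3, and BCL2L1 by -0.46, -0.67 and -0.28. Those are 5 of 10 members with 1 direction in all pairs, where 43.2% of all genes tested had 1 (21.6% higher, 21.6% lower), so the count is near the background. With the replicate number as a block, in a fit of SFN and vehicle libraries alone, BCL2L1 had a log2 fold change of -0.48 ± 0.14 and PMAIP1 of 0.22 ± 0.13 (adjusted p = 0.51 each). With the GC offset as well, BCL2L1 was at -0.13 ± 0.12 and PMAIP1 at 0.11 ± 0.10 (adjusted p = 0.93 each). edgeR called 0 of 14256 genes in either of these fits, with 942 and 480 genes at p under 0.05 before adjustment.

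For ZA against vehicle, PMAIP1 had 144, 115 and 106 CPM in ZA, against 117, 207 and 134 CPM in vehicle, with overlap. The log2 fold change was -0.32 ± 0.26 (adjusted p = 0.98) and -0.05 ± 0.09 with 10 libraries and the offset. BCL2L2 (ENSG00000129473, chromosome 14, 23767999 to 23780968, plus strand) had 23.6, 29.5 and 37.6 CPM in ZA, against 31.4, 27.0 and 23.6 CPM in vehicle. Its log2 fold change was 0.14 ± 0.29 with 12 libraries and 0.07 ± 0.12 with 10 libraries and the offset. With the offset on all 12 libraries it was -0.22 ± 0.26, so its sign turned between fits. BCL2L2 overlaps PPP1R3E on the opposite strand, which had 2046 counts against 5726 for BCL2L2, and a read-through gene with PABPN1, so its count is uncertain. The other 8 members lay between -0.02 for MCL1 and 0.43 for BAD with 12 libraries. With 10 libraries and the offset all 10 lay between -0.12 for BCL2L1 and 0.19 for BCL2. The median over the members was 0.16 and that over all genes 0.00 with 12 libraries, and 0.02 and -0.02 with 10 libraries and the offset. edgeR called 0 members and 0 genes (0%), with 173 genes (1.14%) and 0 members at p under 0.05 before adjustment, and DESeq2 called 0 genes. None of the 10 members had groups without overlap, where 7.54% of all genes did, and with 10 libraries and the offset 15 genes (0.0977%) and 0 members were called.

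The addition of SFN to ZA, read from SFN+ZA against ZA, gave log2 fold changes between -0.15 for PMAIP1 and 0.11 for BAD with 12 libraries, and between -0.16 for BID and 0.06 for MCL1 with 10 libraries and the offset. MCL1 had 380.3, 366 and 362 CPM in SFN+ZA, against 359.6, 351 and 354 CPM in ZA. It was the 1 member whose groups did not overlap, where 12.8% of all genes had no overlap and 6.99% were higher in SFN+ZA without overlap, and its difference was 0.06 ± 0.14. edgeR called 0 members and 0 genes (0%), with 159 genes (1.05%) and 0 members at p under 0.05 before adjustment, and DESeq2 called 0 genes. With 10 libraries and the offset 16 genes (0.104%) and 0 members were called. The interaction, which is how far the log2 effect of SFN+ZA departs from the added effects of SFN and of ZA, lay between -0.39 for PMAIP1 and 0.68 for BAD. Fitted to 10 libraries with the offset, it was -0.28 ± 0.13 for PMAIP1 (adjusted p = 0.55) and -0.32 ± 0.16 for BID (adjusted p = 0.55). With all 12 libraries that of BID was -0.20 ± 0.21 without the offset and -0.51 ± 0.21 with it (adjusted p = 0.998). In the interaction edgeR called 0 members and 0 genes (0%) with 12 libraries, with 257 genes (1.7%) and 0 members at p under 0.05 before adjustment, and DESeq2 called 0 genes. The 10 libraries with the offset likewise gave 0 called genes there (0%). The comparisons with vehicle share its 3 libraries, and those with SFN or ZA share libraries with them, so their values are not independent of each other.

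The 12 libraries set wide limits, and they differed by gene. With all libraries the SE of BAD, the largest among the members, was between 0.82 and 0.83 log2 units in the 5 comparisons of groups, and 3 of the 10 members had a 95% interval inside a 1.5-fold change either way in SFN against vehicle. That number was 4 in ZA against vehicle, 4 in SFN+ZA against vehicle and 3 in SFN+ZA against SFN. With the offset on all 12 libraries it was 5, 5, 5 and 4 in these comparisons, in the same order. In the 10 libraries without the offset it was 6, 9, 9 and 4. In the 10 libraries with the offset it was 9 for SFN against vehicle and 10 for each of the other 3. For all members but BCL2 in SFN against vehicle, those last intervals therefore leave out changes of 1.5-fold or more in that fit alone. They do not show that the levels are alike. That fit keeps 2 SFN and 2 vehicle libraries, and the 2 left out were chosen with earlier results known.

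The genes whose pattern over the 12 libraries was most like each member were found by the root mean square difference of centred log2 CPM, among 9335 other protein-coding genes. PMAIP1 was closest to TOMM20, an import receptor of the mitochondrial outer membrane, at 0.0458 log2 units, and MCL1 to SLC25A12, a mitochondrial carrier, at 0.0522. BID was closest to TSC22D2 (0.0699), BAX to NSMF (0.0725), BCL2L1 to PRKAR1B (0.0727), BCL2 to CXorf38 (0.0769), BCL2L11 to MAT2A (0.0820), BAK1 to MPST (0.0858), BCL2L2 to DDX41 (0.108) and BAD to EGFL7 (0.115). Next after the closest came TMEM14B for PMAIP1 and DDX5 for MCL1, each at 0.0546. The closest genes of the 5 members with the higher GC content had 57.8 to 68.1% GC, and those of the other 5 had 39.5 to 47.2%. A link in function was not tested. The distances describe these libraries, SFN 2 and vehicle 2 included, which all these genes share.

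The wider pathway was read from 8 lists with 53 genes, of which 49 were tested. With 12 libraries edgeR called 0 of the 49 in any of the 6 comparisons, and the lists' median in SFN+ZA against vehicle was -0.04. In SFN+ZA against SFN, the comparison with the lowest p-values, the genes of lowest p in their lists included FAS, a death receptor (-0.93 ± 0.29), ATF4, a transcription factor of the integrated stress response (0.69 ± 0.30), CYCS, which encodes cytochrome c (-0.57 ± 0.23), VDAC2, a channel that holds BAK1 at mitochondria (-0.55 ± 0.23), BIRC2, an inhibitor of apoptosis (-0.54 ± 0.19), the mitophagy receptor BNIP3L (-0.52 ± 0.20) and BTRC, a ubiquitin ligase subunit (-0.45 ± 0.19). Each had an adjusted p of 0.22. With 10 libraries and the offset they kept their signs at smaller sizes, between -0.47 ± 0.20 for FAS and 0.23 ± 0.09 for ATF4, with adjusted p from 0.089 for VDAC2 to 0.71 for CYCS. The other BCL2 family genes were the least complete list, with 8 of 12 tested. In SFN against vehicle 1 of the 8 lay above 0, with a median of -0.36, where 49.2% of all genes tested lay above 0. With 10 libraries and the offset 2 of the 8 did, with a median of -0.02, where 51.9% of all genes tested did. BBC3, which encodes the BH3-only protein PUMA, averaged 8.31 ± 6.71 CPM in SFN and 12.2 ± 10.1 CPM in vehicle (SD, n = 3 each). Its lowest libraries, at 0.567 CPM in SFN and 1.24 CPM in vehicle, lay far below these means. With 10 libraries and the offset its log2 fold change was -0.29 ± 0.14 and did not pass (edgeR, adjusted p = 0.44).

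With 10 libraries and the offset 1 of the 49 genes was called, in SFN+ZA against vehicle, where 3.02% of all genes were. TNFRSF1A, which encodes a receptor for tumour necrosis factor, was lower, at -0.24 ± 0.06 on the log2 scale (adjusted p = 0.033), and at -0.05 ± 0.26 with 12 libraries (adjusted p = 0.95).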

How the data were processed

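The authors deposited, in 1 table, raw counts of reads for each gene with FPKM, gene length and GRCh37/hg19 position. The authors' deposited table also gives log2 fold changes with p-values, raw and adjusted, for 6 pairings of the groups, and group means of scaled counts as a signal, which were not used. HISAT2 (no version) and the build come from the submitters' processing notes. Counting tool, strand setting and library kit are not given in the sources used here. All per-sample columns had a sample. Dishes were plated in triplicate, per the labels' protocols. Nothing says that libraries came from separate cultures, so the spread behind each p-value is that between these samples, possibly only technical.

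Counts of the whole table were fitted with edgeR 4.0.16 in R 4.3.3. This used filterByExpr (15142 genes), TMM, 1 mean per group over 12 libraries, the robust two-sided quasi-likelihood test and Benjamini-Hochberg adjustment over all genes tested. Genes with an adjusted p under 0.05 were called. CPM used TMM-scaled totals, and the totals behind the deposited FPKM differed from these by at most 3.67%. For each SE, the log2 fold change was divided by the root of F. GC content was the mean over a gene's GENCODE 29 transcripts (97.4% of genes tested), and the offset was a natural spline with 5 degrees of freedom for each library. The 10-library fits left out vehicle 2 and SFN 2 and kept 15353 genes. Given CPM and FPKM means cover all 3 libraries of a group. BH3 stretches were found by translating transcripts. Alternatives were DESeq2 1.42.0, its size factors, other filters, separate fits for each pair of groups, a block on the replicate number, and each library left out. Same-numbered SFN and vehicle libraries deviated together from their group means over all genes (correlations of 0.342 to 0.720 in 3 pairs), which no label explains. Vehicle 1 with SFN 3 and vehicle 3 with SFN 1 did so too, so this does not show a pairing by number. In the other 5 pairs of groups at least 1 same-number pair was under 0.1. The code was tested on simulated data.

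The members, lists, naming rule and alternatives, and the choice of vehicle 2 and SFN 2, were made with earlier results of these data known. Named were all 10 members, in each list the gene of lowest p, and any called gene. BBC3 was picked with its values in view. A few genes of the lists and markers are left out of this account.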

Additional observations from a re-analysis of the deposited data

How the results depend on the processing

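None of the 10 members was called in any comparison under any of the 25 settings, which included DESeq2 size factors, the DESeq2 Wald test, all genes with any count, genes at 1 CPM in at least 3 libraries, and separate fits for each pair of groups. Counts of all called genes, 0 in each comparison with edgeR on all 12 libraries, moved. DESeq2 called 21 genes in SFN+ZA against vehicle and 6 in SFN+ZA against SFN. Without vehicle 2 and SFN 2, 52 genes were called in SFN+ZA against vehicle. With the GC offset as well, the counts were 464 in SFN+ZA against vehicle, 23 in SFN+ZA against SFN, 16 in SFN+ZA against ZA, 15 in ZA against vehicle and 4 in SFN against vehicle. Leaving out each library in turn gave 0 to 19 called genes in SFN+ZA against vehicle, the 19 without SFN 2, and 0 to 0 in the other 5 comparisons. The cause was not tested. Of 1346 values of members and ratios under an alternative, 47 moved by more than their error.

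Over all 4 groups the correlations of deviations do not show that the replicate numbers pair the libraries, and they cannot exclude it. Among 18 same-number pairs they ran from -0.621 to 0.720, with 9 over 0.1. With the replicate number as a block over the 12 libraries 0 genes and 0 members were called in each comparison, and PMAIP1 in SFN+ZA against SFN was at -0.67 (adjusted p = 0.21). The block within SFN and vehicle alone, with and without the GC offset, was added after seeing the data and changed no call.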
